A study of Mus musculus with 6 samples.

Results

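ATAC-seq was used to compare chromatin accessibility at 35 genes of glycolysis, the pentose phosphate pathway and the hypoxia response in mouse fetal liver cells transformed by MLL-ENL, either undeleted (WT) or deleted for both Cebpa and Cebpb (dKO). In ATAC-seq the Tn5 transposase cuts open DNA and tags it for sequencing, so the reads over a region measure how open it is. The series holds 6 libraries in 3 groups of 2. WT cells were labelled wild-type and, by the study's methods, derive from fetal livers with floxed Cebpa and Cebpb alleles. The dKO cells were labelled Cebpa KO, Cebpb KO with exogenous GFP. The dKO-LAP* cells, which carry GFP and the rat C/EBPβ isoform LAP* on the same knockout background, were not analysed here. All cells carried the MLL-ENL fusion oncogene from a pMSCV retrovirus, had been selected with G418 and grew in interleukin 3. The dKO lines were clones grown out after Cre treatment. The study reports that such clones were rare, grew slowly and had increased apoptosis. All of them strongly expressed the related factor C/EBPε, which the study proposes makes up in part for the loss. The dKO cells are therefore not cells without any C/EBP factor. The WT labels name no vector, so that genotype, GFP vector and clone cannot be told apart.

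The deposited table lists 10016 regions with 1 group mean for WT and 1 for dKO, on a log2 scale of normalised reads, and each listed region had passed the authors' false discovery rate cutoff of 0.05. A region was given to a gene when it overlapped the gene body or the 25 kb on either side, and a region in several such windows went to the gene with the nearest start site. By this rule 33 regions lay at 18 of the 35 genes, and 17 genes had no listed region. The 35 genes were chosen by pathway with the WT and dKO levels of this same table in view, so the counts and changes below describe these genes and carry no test. Of 21755 protein-coding genes in the annotation, 35.2% had a listed region in the same window. The changes are differences of log2 levels, dKO minus WT. Since the table holds no value per library, no standard deviation can be given. Intervals are 95% intervals for the approximate reads recovered from the group means. They cover counting error only, and PCR copies are not independent reads. In a bulk culture, fewer cells with an open region and less opening per cell cannot be told apart.

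Glycolysis splits glucose into pyruvate, and cells that divide quickly commonly turn much of that pyruvate into lactate. The pentose phosphate pathway branches off at glucose-6-phosphate and yields NADPH and the ribose of nucleotides. When oxygen is low, the hypoxia-inducible factors HIF-1α and HIF-2α bind the core ACGTG and raise glucose transporters, glycolytic enzymes and the kinases that keep pyruvate from being oxidised in the mitochondria. Oxygen-dependent prolyl hydroxylases mark these factors for destruction. C/EBPα and C/EBPβ are myeloid transcription factors that also govern metabolic genes in liver and fat.

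Before the genes, the check of the deleted loci is given. A region over Cebpa (chr7:35118826-35119650) had a log2 level of 9.99 in WT and of -0.15 in dKO, at least 376-fold lower against a floor of 3 reads per library. The value -0.15 is the lowest in the table and stands for 1 read or fewer in each library. Over Cebpb, a region at chr2:167689715-167690187 went from 7.38 to -0.15, at least 61.6-fold lower. A neighbouring Cebpb region (chr2:167688638-167689380) went from 8.60 to 3.37 and so kept reads in dKO. Where the deleted segments end was not examined. No read can come from DNA that has been removed, so these values bear on the genotype and say nothing of accessibility. Unchanged regions were not listed, and the levels of myeloid marker genes could therefore not be used to check the cell type.

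The 33 regions comprised 22 that were more accessible in dKO and 11 that were less accessible, with a median change of 1.15, beside 60.3% higher and a median of 0.98 over all listed regions. Inside the gene bodies alone there were 8 higher and 8 lower regions with a median of -0.07. Of those 8 higher regions, 5 lay at Hk1 and 1 at Pfkl, both on chromosome 10, and the others at Pgd and Slc2a3. All 8 lower ones lay on other chromosomes. Centring on the table's median left 18 higher and 15 lower of the 33. Chromosome 10 accounted for much of the lean to higher regions and is kept apart. It held 11 of the regions, at Hk1 and Pfkl, and all 11 were higher in dKO with a median change of 1.70. Of all 767 listed regions on chromosome 10, 82.0% were higher in dKO, with a median of 1.25. The lean of these 2 genes thus lay on a chromosome that leaned the same way as a whole, and the part of the chromosome in their values was not tested. The other 22 regions, at 16 genes, divided into 11 higher and 11 lower with a median of 0.11. Of all listed regions on the other chromosomes, 58.4% were higher. Among the 22 regions, 9 were at least 2-fold higher and 9 were at least 2-fold lower, against 48.6% and 37.5% of all listed regions outside chromosome 10. The genes divided likewise. Outside chromosome 10, 8 had higher regions only, 7 had lower regions only, and Tkt had both.

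**Figure D1:**
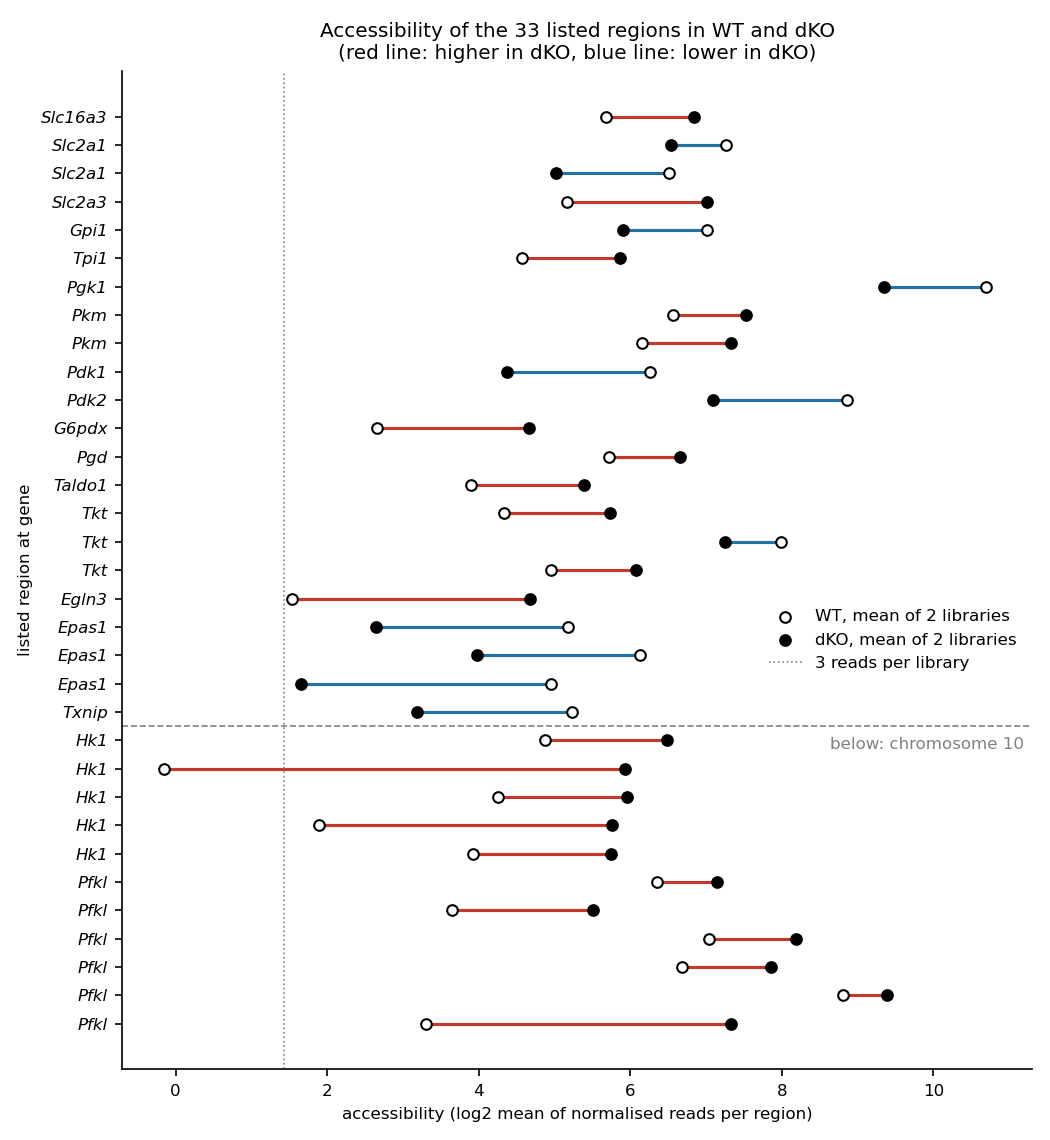
Log2 level of normalised reads (horizontal axis) in WT (open circles) and dKO (filled circles) for each of the 33 listed regions (vertical axis, by gene); each circle is the authors' mean of 2 libraries, without error bars because the table has none, and the dotted line marks 3 reads per library. The 11 regions of Hk1 and Pfkl under the dashed line all have the filled circle on the right, while the 22 regions above it divide into 11 higher and 11 lower in dKO.

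The central 200 bases of the regions on which the account turns are shown here, read on the + strand of the mm10 chromosomes. Capitals mark matches on either strand to short words: TTGCNNAA or TTACNNAA for C/EBP, TGACTCA for AP-1, GAGGAAGT for PU.1, AACCACA for RUNX, ACGTG for the HIF core and CACGTG for the E-box. Every E-box holds a HIF core. The first 4 are regions lower in dKO that hold a C/EBP word, a HIF core or both.
Pgk1 promoter, chrX:106186894-106187093: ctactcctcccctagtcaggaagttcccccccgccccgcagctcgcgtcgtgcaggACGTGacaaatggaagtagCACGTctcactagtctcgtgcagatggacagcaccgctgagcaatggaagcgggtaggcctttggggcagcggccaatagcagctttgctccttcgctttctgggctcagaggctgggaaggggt
Pdk1 downstream, chr2:71919506-71919705: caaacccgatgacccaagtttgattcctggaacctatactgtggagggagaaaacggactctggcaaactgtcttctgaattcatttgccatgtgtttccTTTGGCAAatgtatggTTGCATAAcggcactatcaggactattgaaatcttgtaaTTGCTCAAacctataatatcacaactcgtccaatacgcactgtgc
Epas1 intron, chr17:86787896-86788095: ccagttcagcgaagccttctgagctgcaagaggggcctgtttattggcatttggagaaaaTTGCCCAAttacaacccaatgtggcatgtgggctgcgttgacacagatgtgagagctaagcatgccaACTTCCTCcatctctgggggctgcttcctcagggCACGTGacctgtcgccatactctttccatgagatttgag
Txnip downstream, chr3:96586889-96587088: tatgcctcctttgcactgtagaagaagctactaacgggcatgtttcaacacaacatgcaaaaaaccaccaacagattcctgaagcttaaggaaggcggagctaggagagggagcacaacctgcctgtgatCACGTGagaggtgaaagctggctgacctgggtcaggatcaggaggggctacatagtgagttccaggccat
The next 4 are regions higher in dKO that hold an AP-1 word.
Slc2a3 intron, chr6:122758815-122759014: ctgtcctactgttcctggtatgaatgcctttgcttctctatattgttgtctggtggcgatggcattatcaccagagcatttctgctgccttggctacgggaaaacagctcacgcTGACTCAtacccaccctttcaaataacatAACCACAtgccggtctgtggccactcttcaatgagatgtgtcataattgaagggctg
Pkm upstream, chr9:59653473-59653672: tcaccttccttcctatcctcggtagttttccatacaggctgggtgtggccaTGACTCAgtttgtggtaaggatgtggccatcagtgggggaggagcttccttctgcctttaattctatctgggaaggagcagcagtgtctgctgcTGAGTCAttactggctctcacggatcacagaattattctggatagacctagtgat
G6pdx downstream, chrX:74400206-74400405: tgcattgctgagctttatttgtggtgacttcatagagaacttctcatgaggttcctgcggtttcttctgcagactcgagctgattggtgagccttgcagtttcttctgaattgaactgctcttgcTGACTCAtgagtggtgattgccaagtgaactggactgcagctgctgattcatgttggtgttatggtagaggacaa
Hk1 intron, chr10:62320441-62320640: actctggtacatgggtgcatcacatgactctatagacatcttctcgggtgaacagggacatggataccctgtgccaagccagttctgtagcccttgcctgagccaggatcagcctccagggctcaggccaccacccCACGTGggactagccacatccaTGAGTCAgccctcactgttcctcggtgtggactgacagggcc
The last 3 are the regions with the largest rise at Hk1, at Pfkl and at Egln3, and none of the words was found in them.
Hk1 coding exon, chr10:62286384-62286583: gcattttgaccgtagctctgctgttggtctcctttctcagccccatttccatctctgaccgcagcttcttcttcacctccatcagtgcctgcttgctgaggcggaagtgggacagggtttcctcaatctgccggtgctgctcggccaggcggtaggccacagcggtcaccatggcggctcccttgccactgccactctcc
Pfkl upstream, chr10:78013188-78013387: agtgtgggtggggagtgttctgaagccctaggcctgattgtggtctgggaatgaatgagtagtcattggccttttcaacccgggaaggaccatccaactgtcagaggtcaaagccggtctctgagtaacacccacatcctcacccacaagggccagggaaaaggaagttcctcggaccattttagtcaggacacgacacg
Egln3 downstream, chr12:54170665-54170864: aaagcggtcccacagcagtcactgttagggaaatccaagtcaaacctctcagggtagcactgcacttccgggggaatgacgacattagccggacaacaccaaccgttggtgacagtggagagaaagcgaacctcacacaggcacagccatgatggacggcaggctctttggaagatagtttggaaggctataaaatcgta

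Transport of glucose and lactate was represented by 3 of 4 genes. Slc2a1, which encodes the widely expressed glucose transporter GLUT1, was less accessible in dKO at both of its regions. An intronic region of Slc2a1 (chr4:119127270-119128047) had a level of 7.26 in WT and 6.54 in dKO, a change of -0.72 (interval -0.97 to -0.46). The second Slc2a1 region lay 3235 bp past the gene (chr4:119141218-119141687) and fell from 6.51 to 5.02, a change of -1.49 (-1.90 to -1.09). It held both a C/EBP and an AP-1 word and was the only lower region with the latter. Slc2a3, which encodes the high-affinity transporter GLUT3, moved the other way. Its intronic region (chr6:122758716-122759113) rose from 5.16 to 7.01, a change of 1.85 (1.49 to 2.23), and the nearest start site was its own, 15796 bp away. The lactate exporter gene Slc16a3 (MCT4) had a region 9270 bp upstream (chr11:120938809-120939210) that rose from 5.68 to 6.84, a change of 1.16. The start site nearest to that region was that of Ccdc57. Slc16a1, the gene of the lactate and pyruvate carrier MCT1, had no listed region.

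In upper glycolysis, from glucose to triose phosphate, 4 of 10 genes had regions. Hexokinase 1 (Hk1) phosphorylates glucose in the first step. It had 5 regions over 72.9 kb within its body on chromosome 10, all higher in dKO and all with Hk1 as the nearest start site. The largest change among the 35 genes lay in an Hk1 exon (chr10:62286322-62286645), where 298 of 324 bp were coding sequence. WT stood at -0.15, the lowest value in the table, and dKO at 5.93, so that dKO was at least 22.5-fold higher against the floor. A region over a long intron (chr10:62349130-62349711) rose from 1.89 to 5.76, a change of 3.87 (2.88 to 5.15) or 14.6-fold. The other Hk1 regions were open in both groups. They had WT levels of 4.88, 4.25 and 3.92 and dKO levels of 6.48, 5.95 and 5.74, with changes of 1.60, 1.70 and 1.82. In dKO the 5 levels per region came to lie within a narrow band from 5.74 to 6.48, whereas in WT they were spread from -0.15 to 4.88.

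Pfkl encodes the liver-type subunit of phosphofructokinase, the main control point of glycolysis, and also lies on chromosome 10. Its 6 regions, over 50.7 kb, were all higher in dKO. The region over the Pfkl start site (chr10:78009174-78010016) was already among the most open of the table in WT, at 8.81, and stood at 9.39 in dKO. That change of 0.58 (0.46 to 0.70) was the smallest among the 33 regions. A region 3018 bp upstream of the start (chr10:78013101-78013474) rose from 3.30 to 7.33, a change of 4.03 (3.40 to 4.71) or 16.3-fold. The promoter, open in both groups, and this upstream region, weak in WT, thus differed widely in the size of their rise. The remaining 4 Pfkl regions lay past the gene and closer to Trpm2, a cation channel gene, than to Pfkl. They went from 6.35 to 7.14, from 3.65 to 5.51, from 7.04 to 8.19 and from 6.68 to 7.86. The region that rose from 7.04 to 8.19 overlapped a Trpm2 start site, and the one that rose from 6.68 to 7.86 lay 576 bp from one. Centred on the median change of the whole table, 0.98, the changes of 0.58 at the Pfkl start and of 0.79 at the farthest Pfkl region turn to negative values, whereas the other 4 stay positive. That median is one over changed regions only.

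Outside chromosome 10, upper glycolysis had 1 higher and 1 lower region. Gpi1 encodes glucose-6-phosphate isomerase, at the branch point to the pentose phosphate pathway. An intronic region (chr7:34221590-34222040) with a C/EBP word fell from 7.01 to 5.90, a change of -1.11 (-1.41 to -0.80). Tpi1, the gene of triosephosphate isomerase, had a region 20319 bp upstream (chr6:124834615-124834920) that rose from 4.57 to 5.86, a change of 1.29. Its nearest start site was that of Gnb3, 1377 bp away. Hk2, Pfkp, Pfkfb3, Pfkfb4, Aldoa and Aldoc had no listed region.

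**Figure D2:**
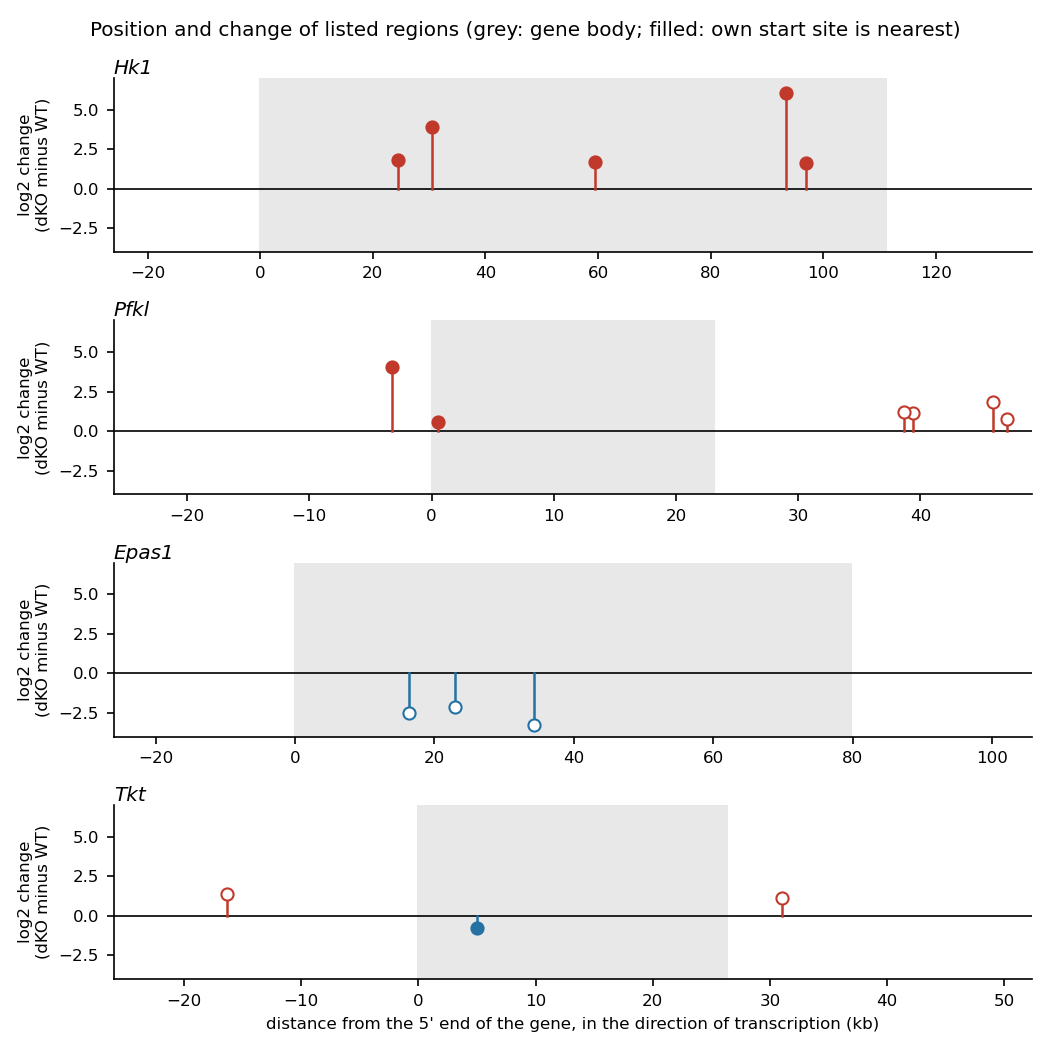
Change in accessibility (vertical axis, log2, dKO minus WT) of each listed region by the distance of its centre from the 5′ end of the gene in the direction of transcription (horizontal axis, kb) for the 4 genes with at least 3 regions; grey marks the gene body, and filled points have the gene's own start site as the nearest. All 5 points of Hk1 and 6 of Pfkl lie above 0, all 3 of Epas1 lie below 0 inside the body, and Tkt has 1 point below and 2 above.

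In lower glycolysis, from triose phosphate to lactate, 2 of 8 genes had regions. The region with the highest WT level of the 33 lay over the start site of Pgk1 (chrX:106186671-106187315), whose product, phosphoglycerate kinase 1, makes the first ATP of the payoff phase. Its level of 10.69 in WT was, by reads per region, the 6th highest of the 10016, and in dKO it was 9.35, a change of -1.34 (-1.43 to -1.25) or 2.53-fold lower. In normalised reads this was 1652 in WT and 653 in dKO, and per kb of region it was 2561 and 1012. The sequence of the Pgk1 region above shows 2 HIF cores, one on each strand. Retroviral vectors of the pMSCV type commonly drive their drug resistance gene from a copy of the mouse Pgk1 promoter, and reads from such a copy cannot be told apart from those of the gene itself in this table. Whether vector copies added reads in either group was not tested.

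Pkm, the gene of pyruvate kinase M, was higher in dKO at both of its regions. The region 2654 bp upstream of the Pkm start (chr9:59653430-59653714) rose from 6.56 to 7.52, a change of 0.96 (0.72 to 1.21), and held 2 AP-1 words. It turns to a value just under 0 when the table's median is subtracted. The other region (chr9:59679708-59680449), 333 bp past Pkm, overlapped the start of the neighbouring gene Gramd2 and rose from 6.15 to 7.33, a change of 1.18. Gapdh, Pgam1, Eno1, Eno2, Ldha and Ldhb had no listed region, so that for most enzymes of lower glycolysis the table gives no change.

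The pyruvate dehydrogenase complex admits pyruvate to the mitochondrial oxidation cycle, and its kinases switch it off. Of 5 genes, the kinase genes Pdk1 and Pdk2 had 1 region each, and both were lower in dKO. Among all listed regions outside chromosome 10, 58.4% were higher. With windows of 10 kb or the gene body alone, only the Pdk2 region was left. The Pdk2 region covered the gene's own start site (chr11:95041070-95041719). It went from 8.86 to 7.09, a change of -1.77 (-1.96 to -1.59), which in normalised reads was 465 in WT and 136 in dKO or 3.41-fold lower. Pdk1, a HIF target in many cell types, had a region 15528 bp past the gene (chr2:71919386-71919825) that fell from 6.26 to 4.37, a change of -1.89 (-2.39 to -1.41). With 3 C/EBP words in the sequence shown above, the Pdk1 region held more of them than any other of the 33. Pdha1, which encodes the catalytic subunit that these kinases phosphorylate, and Pdk3 and Pdk4 had no listed region.

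The pentose phosphate genes were the only role in which each of the 4 genes had a listed region, and 5 of their 6 regions were higher in dKO, beside 58.4% of all listed regions outside chromosome 10. That lean depended on the window, with 5 higher and 6 lower regions at 100 kb and 1 of each by nearest start. G6pdx encodes glucose-6-phosphate dehydrogenase, which opens the oxidative branch. A region 9052 bp past the gene (chrX:74400180-74400431), nearer to the start of Ikbkg, rose from 2.66 to 4.66, a change of 2.00 (1.14 to 2.96). Pgd encodes the next dehydrogenase of that branch. Its intronic region (chr4:149163292-149163528), 1638 bp from the gene's own start, rose from 5.72 to 6.66, a change of 0.94 (0.61 to 1.27) that becomes slightly negative after centring on the table's median. Taldo1, the gene of transaldolase in the non-oxidative branch, had a region 19784 bp upstream (chr7:141371974-141372415) that rose from 3.90 to 5.39, a change of 1.49.

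Transketolase (Tkt), the other enzyme of the non-oxidative branch, was the single gene with changes in both directions. The intronic Tkt region (chr14:30553158-30553556), the only one with Tkt as the nearest start, went from 7.99 to 7.25, a change of -0.74 (-0.94 to -0.54). A region 16154 bp upstream (chr14:30531851-30532205), nearer to Dcp1a, rose from 4.34 to 5.73, a change of 1.39, and held an AP-1 word. The other flanking region, 4562 bp past Tkt (chr14:30579282-30579570), rose from 4.95 to 6.08, a change of 1.13. The strongest Tkt region was therefore the one that lost accessibility, and the weaker flanking regions gained it.

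Among the regulators of hypoxia and glucose handling, 3 of 4 genes had regions, 1 higher and 4 lower within 25 kb, beside 58.4% higher among all listed regions outside chromosome 10. Within 100 kb the same 3 genes had 7 higher and 5 lower regions, and by nearest start the 1 region left, at Egln3, was higher. Epas1 encodes HIF-2α, and its 3 intronic regions, over 18.4 kb, were all lower in dKO. The levels fell from 5.18 to 2.65 at chr17:86769728-86770255, a change of -2.53 (-3.45 to -1.68). The second Epas1 region (chr17:86776377-86776911) fell from 6.13 to 3.98, a change of -2.15 (-2.72 to -1.61). At chr17:86787842-86788148 the level fell from 4.95 to 1.66, a change of -3.29 (-4.67 to -2.18) or 9.78-fold, which was the largest fall among the 33 regions. In normalised reads this last region went from 30.9 to 3.16, close to the floor. It held a C/EBP, a PU.1 and an E-box word. All 3 regions were nearest to the start of AC096777.1, a transcript annotated inside Epas1, and lay 16028, 22677 and 34142 bp from the Epas1 start.

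Egln3 and Txnip each had 1 region. Egln3 encodes the prolyl hydroxylase PHD3, which acts on the HIF proteins, and its region 8106 bp past the gene (chr12:54170654-54170875) had the Egln3 start as the nearest, 32985 bp away. It rose from 1.54 to 4.68, a change of 3.14 (2.04 to 4.75) or 8.82-fold, the largest rise among the 22 regions outside chromosome 10. The WT level was just above the floor, at 2.91 normalised reads. Thus the gene of a HIF subunit and that of an enzyme acting on it had changes of opposite sign. Txnip encodes a protein that restrains glucose uptake and responds to glucose through E-box elements. A region 24922 bp past Txnip (chr3:96586805-96587171), nearer to Polr3gl, fell from 5.23 to 3.18, a change of -2.05 (-2.84 to -1.34), and held an E-box. Hif1a, the gene of HIF-1α, had no listed region.

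**Figure D3:**
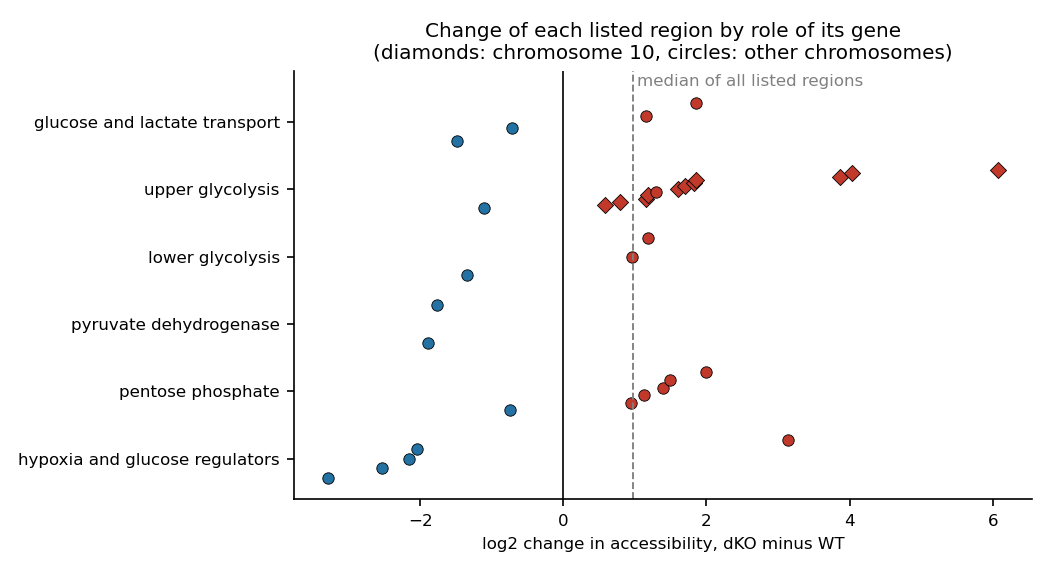
Log2 change, dKO minus WT (horizontal axis), of the 33 listed regions grouped by the role of their gene (vertical axis), with diamonds for chromosome 10 and circles for other chromosomes; the dashed line is the median of all 10016 listed regions, 0.98. Both pyruvate dehydrogenase points and 4 of 5 points of the hypoxia and glucose regulators are negative, whereas 5 of 6 pentose phosphate points are positive; with windows of 100 kb the regulators have 7 higher and 5 lower regions and the pentose phosphate genes 5 higher and 6 lower. With windows of 10 kb only the Pdk2 region of the pyruvate dehydrogenase role is left.

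Some of these regions sat at the limits of the assignment. The farthest regions inside the 25 kb window were that of Txnip at 24922 bp and that of Pfkl at 23784 bp, with changes of -2.05 and 0.79. The nearest regions outside it were one 29514 bp from Pdk1 (chr2:71843285-71843710), which rose from 5.13 to 6.18, and one 31670 bp from Tkt (chr14:30516274-30516689), which fell from 6.71 to 5.68. Of the 33 regions, 18 were nearer to the start of another gene than to that of the gene named here. The 15 with their own gene's start as the nearest comprised 11 higher and 4 lower regions, of which 7 higher ones were those of Hk1 and Pfkl on chromosome 10. Outside it the division was 4 higher, at Egln3, Pgd, Pkm and Slc2a3, and 4 lower, at Pdk1, Pdk2, Pgk1 and Tkt. The assignment is one of position, and no region was tied to a gene by a functional test.

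By place, 4 regions lay over exons, 12 in introns, 6 upstream and 11 downstream of their gene. Only 3 overlapped the start site of their own gene, those of Pgk1, Pdk2 and Pfkl. Pgk1 and Pdk2 were lower in dKO and Pfkl higher. Within 1 kb of any start site lay 6 regions or 18.2%, close to the 19.1% of all listed regions. The median distance to a start site was 3107 bp, compared with 7780 bp for all listed regions. Median width was 400 bp in both, and median GC content was 52.0% and 50.0%.

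The short words were counted in the central 200 bases of the 33 regions, beside the same count over all listed regions. A C/EBP word occurred in 4 of the 11 lower regions (36.4%), at Epas1, Gpi1, Pdk1 and Slc2a1. It occurred in 1 of the 22 higher regions (4.55%), the farthest of Pfkl. Over all listed regions these shares were 40.8% of the lower and 20.1% of the higher ones. An AP-1 word occurred in 8 of the 22 higher regions (36.4%) and in 1 of the 11 lower ones (9.09%), against 26.7% and 4.67% over all listed regions. The 8 higher regions with it lay at G6pdx, Hk1, Pkm, Slc16a3, Slc2a3, Taldo1 and Tkt, with 2 of them at Hk1. A HIF core occurred in 5 of the 11 lower regions (45.5%) and in 3 of the 22 higher ones (13.6%), against 15.3% and 12.7%. The 5 lower regions with a HIF core were those at Pgk1 and Txnip, 2 at Epas1 and 1 at Slc2a1. In 3 of those 5, at Epas1 and Txnip, the core was part of an E-box. PU.1 and RUNX words were found in 2 regions each, compared with 9.22% and 11.9% of all listed regions. These counts are small, and a match describes letters, not a bound factor.

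**Figure D4:**
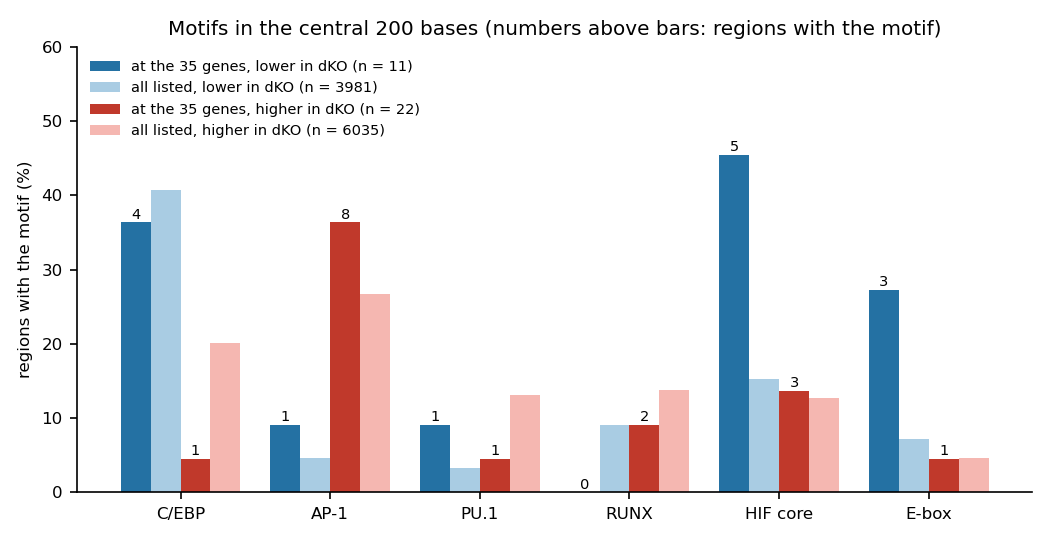
Share of regions with each short word in the central 200 bases (vertical axis, percent) for regions at the 35 genes (dark bars, with the number of regions above) and for all listed regions (light bars), lower (blue) or higher (red) in dKO. Among the genes' lower regions 4 of 11 hold a C/EBP word and 5 of 11 a HIF core, and among the higher ones 8 of 22 hold an AP-1 word.

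The promoters of the 35 genes were searched for the HIF core, the E-box and the C/EBP words. The genes were chosen for glycolysis and hypoxia, with accessibility values known, so that the choice itself bears on the share of HIF cores. RefSeq promoter sequences on GRCm38.p6, each a short window around a start site, were matched for 33 genes with 45 promoters, Epas1 and Slc2a3 being without one. A HIF core occurred in 20 of the 45 promoters (44.4%), from 18 genes, against 19.6% of all 32851 promoters. These 18 genes included Pgk1, Slc2a1, Hk1, Pkm, Pdk2, Egln3, G6pdx and Slc16a3 among those with a listed region, and Aldoa, Gapdh, Ldha and Hk2 among those without. An E-box occurred in 5 promoters (11.1%) against 7.15% of all. A C/EBP word occurred in 4 promoters (8.89%), those of Eno1, Ldhb, Pdk1 and Pkm, against 18.5% of all promoters.

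Other genes of the same pathways were drawn from a list of 80 that does not hold the 35, in which 39 had a listed region and 41 had none, beside 35.2% of all protein-coding genes with one. Of these 39, 19 had higher regions only, 18 lower regions only and 2 had both. On chromosome 10, 8 of 9 regions were higher, beside 82.0% of all listed there. On the other chromosomes, 21 were higher and 22 lower, beside 58.4% higher among all listed regions there. The largest rises lay on chromosome 10 at Slc16a7, the gene of the monocarboxylate transporter MCT2, where a region rose from 2.46 to 5.99 and another, nearest to the start of Gm45604, from 3.83 to 6.82. Hk3, a hexokinase gene of myeloid cells on chromosome 13, came next with a region 2658 bp past the gene that rose from 2.89 to 5.61, a change of 2.72 (1.99 to 3.61). The start nearest to that region was that of Unc5a, 63 bp away. The largest falls lay at Slc2a12 on chromosome 10, which went from 4.83 to 0.86 and was at least 10.5-fold lower, and at Slc2a2, the gene of GLUT2, which went from 5.25 to 1.42 and was at least 14.1-fold lower. Mlxipl, which encodes the glucose-responsive factor ChREBP, followed with a fall from 6.67 to 3.38, a change of -3.29 (-3.98 to -2.68).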

How the data were processed

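ATAC-seq libraries of WT, dKO and dKO-LAP* cells were, per the labels and the study's methods, preprocessed with PiGx, aligned to mm10 with Bowtie2, called for peaks with MACS2 and compared with DiffBind 2.14.0. Handling of duplicate reads and the Tn5 offset are not given in the sources used here. Kept duplicates would raise strongly amplified regions, and an offset moves edges by a few bases. The 2 processed files were identical and gave 1 table, which covers WT and dKO. The authors deposited log2 values, the mean of normalised reads per group, and these alone were used. The table also holds the authors' fold changes, p-value and false discovery rate per region, which were not used other than to check that no region exceeded the cutoff of 0.05. Depth per library is unknown from the table, and its 4 libraries are not stated to come from separate cultures.

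The lowest group means gave the worth of a read, on average 0.901 normalised reads over the libraries of a group, its worth differing by a factor of 1.26 within WT and 1.02 within dKO. This average gave approximate reads per group, exact binomial intervals of the log2 change and a floor of 3 reads per library (log2 1.435 in both groups). Folds with the lower of both groups at that floor or below it are bounds against it. Sequences came from GRCm38.p6, whose chromosomes are those of mm10, and gene bodies and start sites from GENCODE M21. Words were searched on both strands of the central 200 bases and of RefSeq promoters. Python 3.11.15 with pandas 2.3.3, numpy 2.4.6, scipy 1.17.1 and matplotlib 3.10.9 was used. The distance between intervals, the ratio of read worths and the floor were checked on made-up values. The assignment of regions to genes was not tested in that way.

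The members and gene lists were chosen with earlier results of these data known. Named were, for each gene, the region with the largest change and any within 1 kb of its start, all regions of genes with 3 or more, and in the wider list the 3 largest rises and 3 largest falls. The remaining regions were described to account for every one. Alternatives were the gene body alone, windows of 10 and 100 kb, assignment by nearest start, a minimum change, a minimum level, centring on the table's median and low values at their bound. Leaving out chromosome 10 was added after seeing the data.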

Additional observations from a re-analysis of the deposited data

How the results depend on the processing

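No paired analysis was possible because values per library are not in the table, which is also why no replicate could be left out. With a median of 1.15 over 33 regions, 22 higher and 11 lower, as the reference, regions inside the gene body alone numbered 16, 8 of them higher, and their median turned to -0.07. Of those 8 higher regions, 5 lay at Hk1 and 1 at Pfkl on chromosome 10, which held no lower region. Windows of 10 kb gave a median of 1.045, and windows of 100 kb gave 74 regions, 48 higher and 26 lower, with a median of 1.05. Assignment by nearest start of any gene left 15 regions, 11 higher and 4 lower, with a median of 1.60. A minimum log2 change of 1 gave a median of 1.18, a minimum mean level a median of 1.155, and centring on the table's median one of 0.17 with 18 higher and 15 lower. Without chromosome 10, chosen after seeing the data, 11 were higher and the median was 0.11. These shifts follow from which regions each setting holds or from the subtraction itself. By role, the 5 higher and 1 lower pentose phosphate regions became 5 and 6 with 100 kb and 1 and 1 by nearest start or in the gene body, and the 1 higher and 4 lower regulator regions became 7 and 5 with 100 kb. Both pyruvate dehydrogenase regions stayed lower by nearest start, and 4 of 5 were lower with 100 kb. With 10 kb or the gene body alone, only the lower region at Pdk2 was left for that role. For single genes, the number of higher minus lower regions turned from 1 to -1 at Tkt with the gene body alone, nearest start and 100 kb, from 1 to -1 at Pgd with 100 kb and with centring, and from -1 to 2 at Txnip with 100 kb. Of 162 combinations of gene and setting, 109 kept that number, 21 changed it, 6 reversed it and 26 had no region left. Depth limits the Egln3, Epas1 and Hk1 values near the floor.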

Other observations

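In the wider list of pathway genes, the pentose phosphate members leaned to lower accessibility in dKO, with 4 of 5 regions lower, whereas at G6pdx, Pgd, Tkt and Taldo1 5 of 6 were higher. The difference was not tested. Of all listed regions outside chromosome 10, 58.4% were higher, and with windows of 100 kb those 4 genes had 5 higher and 6 lower regions. The lower regions lay at Tktl2, a transketolase-like gene (4.98 to 1.86), Prps1, which makes phosphoribosyl pyrophosphate from ribose phosphate (4.74 to 2.65), Tigar, a regulator that diverts glucose to the pathway (5.02 to 3.32, nearest to the start of Fgf23), and H6pd, the enzyme of the endoplasmic reticulum (7.85 to 7.02). The ribokinase gene Rbks had the 1 higher region (3.42 to 5.62). These genes were singled out after their values were seen.

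Hk3 and Mlxipl were also singled out after their values were seen. All 4 regions in the window of Hk3 were higher in dKO, beside 58.4% of all listed regions outside chromosome 10. Of these 4 regions, 2 were nearest to the start of Unc5a. The Hk3 region over the start site (chr13:55021013-55021716) rose from 5.54 to 7.70, a change of 2.16 (1.85 to 2.48), and the others by 2.05 to 2.72. Both Mlxipl regions, within an intron 800 and 1239 bp from its start, were lower, from 6.67 to 3.38 and from 7.26 to 5.26. The 17 regions at hypoxia and glucose regulators of the wider list divided into 8 higher and 9 lower, beside 60.3% higher among all listed regions. Of the 8 higher ones, those at Ddit4 and P4ha1 lay on chromosome 10. All 9 lower ones lay on other chromosomes, where 58.4% of all listed regions were higher. Of the 13 genes of this role with regions, 6 had higher regions only, 5 had lower regions only and 2 had both. As examples singled out after their values were seen, a region at Vegfa, a classical HIF target, rose from 3.42 to 5.86. Regions at the HIF targets Egln1 and Car12 fell from 5.89 to 4.55 and from 6.05 to 4.94. Regions at Bnip3 and P4ha2 rose, and Ndrg1 and Mxi1 each had a higher and a lower region.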
